A study of Bos taurus with 9 samples.

Results

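The subunits of the oxidative phosphorylation system were examined in WT and *TEAD4* KO bovine blastocysts, separately for the genes carried by the mitochondrial genome and those carried by the nuclear genome. Members were taken by symbol: 13 protein genes of the mitochondrial genome (*ND1* to *ND6*, *ND4L*, *CYTB*, *COX1* to *COX3*, *ATP6* and *ATP8*) and 86 nuclear genes of complexes I to V and cytochrome c, with the NDUFAF assembly factors left out. They made up 99 of the 21512 genes in the deposited table. By symbol, the nuclear members were 39 genes of complex I, 4 of complex II, 9 of complex III, 16 of complex IV, 17 of complex V and *CYCS*. Values are in TPM, a measure of transcript abundance that takes transcript length into account and sums to 1000000 in each library.

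Bovine embryos were produced in vitro with semen of 1 bull, and single blastocysts were collected on day 8, each giving 1 library. WT embryos came from the group injected with Cas9 mRNA alone, and KO embryos received Cas9 mRNA with a guide RNA to *TEAD4* and carried only frame-disrupting alleles. The 5 WT libraries are called WT_1 to WT_5 and the 4 KO libraries TE_1 to TE_4, and equal numbers do not mark pairs. The labels and the study's methods name different kits for extraction and library preparation, both with capture of polyadenylated RNA. Whole blastocysts were sequenced, so that a change in the share of a cell type and a change in RNA per cell cannot be told apart.

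Oxidative phosphorylation couples the oxidation of NADH and succinate to ATP synthesis at the inner mitochondrial membrane. Complexes I and II pass electrons to ubiquinone, complex III passes them to cytochrome c and complex IV to oxygen, while complexes I, III and IV move protons across the membrane and complex V uses their return to make ATP. All complexes except complex II combine subunits of both genomes, and in the mammalian embryo oxygen use and mitochondrial ATP production rise towards the blastocyst stage.

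*TEAD4*, the edited gene, was measured at 18.0, 52.5, 54.3, 36.5 and 43.4 TPM across WT_1 to WT_5, against 42.8, 41.8, 12.5 and 22.2 TPM across TE_1 to TE_4. WT and KO values overlapped, and TPM do not show whether a transcript carries an indel (log2 fold change −0.51, standard error 0.42, limma adjusted p = 0.947, log2 fold change −0.16 without TE_3 and −0.77 without WT_1). Transcripts of the trophectoderm keratins *KRT8* and *KRT18* and of the pluripotency factor *POU5F1* were abundant in every library. *KRT8* and *KRT18* together summed to 17602, 13746, 7299.8, 3829 and 13812 TPM across WT_1 to WT_5, against 9123, 11971, 6509 and 6374 TPM across TE_1 to TE_4. WT_4 held the least keratin and WT_1 the most. *NANOG*, an epiblast gene, was at 0.127, 29.3, 53.4, 262 and 90.2 TPM over the 5 WT embryos in order and 53.3, 2.70, 3.55 and 26.3 TPM over the 4 KO embryos, highest in WT_4 and lowest in WT_1, while *SOX2* was lowest in TE_3 and WT_1.

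Oxidative phosphorylation transcripts were a large share of the embryo's messenger RNA. The share of all TPM held by the 99 members was 9.18, 13.2, 11.6, 11.0 and 11.6% across WT_1 to WT_5, against 13.1, 8.23, 11.8 and 11.2% across TE_1 to TE_4. It was lowest in TE_2 and WT_1 and highest in WT_2 and TE_1, so that the groups overlapped. Among the 100 genes with the highest mean TPM in the table, 21 were members, 7 of them mitochondrial. A mean above 1000 TPM was reached by 38 members, and 93 were above 10 TPM in every library. The exceptions were 6 isoform genes, *NDUFA4L2*, *COX4I2*, *COX6A2*, *COX6B2*, *COX7A1* and *COX8B*. With a median above 0.1 TPM required for testing, 96 members were tested. *COX4I2*, *COX6A2* and *NDUFA4L2* were below it.

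The sum over the 13 mitochondrial members was 33272, 55268, 40087, 28548 and 45157 TPM across WT_1 to WT_5, against 35486, 26722, 44594 and 34253 TPM across TE_1 to TE_4. WT_2 was highest and TE_2 lowest, and the groups overlapped. The sum averaged 40466 TPM in WT (SD 10429, n = 5) against 35264 TPM in KO (SD 7328, n = 4). The 86 nuclear members summed to 58546, 77071, 75602, 81075 and 71294 TPM across WT_1 to WT_5, against 95442, 55569, 73314 and 77949 TPM across TE_1 to TE_4. Here TE_1 was highest and TE_2 lowest, so that both extremes were KO embryos. The nuclear sum averaged 72718 TPM in WT (SD 8659.7, n = 5) against 75568 TPM in KO (SD 16388, n = 4). The ratio of the mitochondrial to the nuclear sum was 0.568, 0.717, 0.530, 0.352 and 0.633 over the 5 WT embryos in order and 0.372, 0.481, 0.608 and 0.439 over the 4 KO embryos. It was lowest in WT_4 and TE_1 and highest in WT_2, again with overlapping groups, at a mean of 0.560 in WT (SD 0.136, n = 5) and 0.475 in KO (SD 0.0995, n = 4). The markers of the trophectoderm, 9 genes of which *KRT18* and *KRT8* are the most abundant, summed to 18006, 14015, 7655, 4079 and 14094 TPM across WT_1 to WT_5, against 9331, 12419.8, 6987 and 6604 TPM across TE_1 to TE_4. WT_4 was lowest in this sum and in the ratio, but TE_1, with the lowest KO ratio, had a higher sum than TE_3 and TE_4. Other markers of the list had another order, and *GATA2*, *GATA3* and *IFNT2* were highest in TE_3. *TFAP2A*, lower in KO, was the only 1 of the 9 with an unadjusted p under 0.05 (against 3.83% of all genes lower and 2.07% higher). It averaged 8.28 TPM in WT (SD 3.97, n = 5) against 2.83 TPM in KO (SD 2.03, n = 4), and the groups overlapped (log2 fold change −1.34, standard error 0.50, limma adjusted p = 0.745). Log2 fold changes of *CDX2* (0.15), *TFAP2C* (0.11) and *IFNT2* (0.34) were above 0, and those of the other markers in the list were below 0. The markers of the epiblast and inner cell mass, 6 genes led by *POU5F1*, summed to 897, 1101, 1812, 2358 and 1349 TPM over the 5 WT embryos in order and 1659, 2338, 1451 and 2231 TPM over the 4 KO embryos. This sum was mostly *POU5F1*, which with *KLF4* had a log2 fold change above 0, while *NANOG*, *SOX2*, *SOX15* and *PRDM14* had log2 fold changes below 0. The study states that *POU5F1* and *CDX2* do not exclude each other in bovine blastocysts as they do in mouse. The sum is therefore no measure of the inner cell mass alone. The 5 hypoblast markers, led by *GATA6*, summed to 84.0, 97.8, 118, 116 and 162 TPM over the 5 WT embryos in order and 46.0, 156, 60.9 and 98.7 TPM over the 4 KO embryos, highest in WT_5 and TE_2. *GATA4* among them was at 1.09 to 1.75 TPM in WT and 0.367 to 0.957 TPM in KO. It was lower in all KO than in all WT embryos, which held for 1.23% of all genes (limma adjusted p = 0.684, exact two-sided permutation p = 0.0159, the smallest possible). *SOX17* (−1.12), *PDGFRA* (−0.55) and *GATA6* (−0.47) also had log2 fold changes below 0, with overlapping groups, and *RSPO3* had one of 0.066. The part of these cell types in the ratio was not tested.

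**Figure D1:**
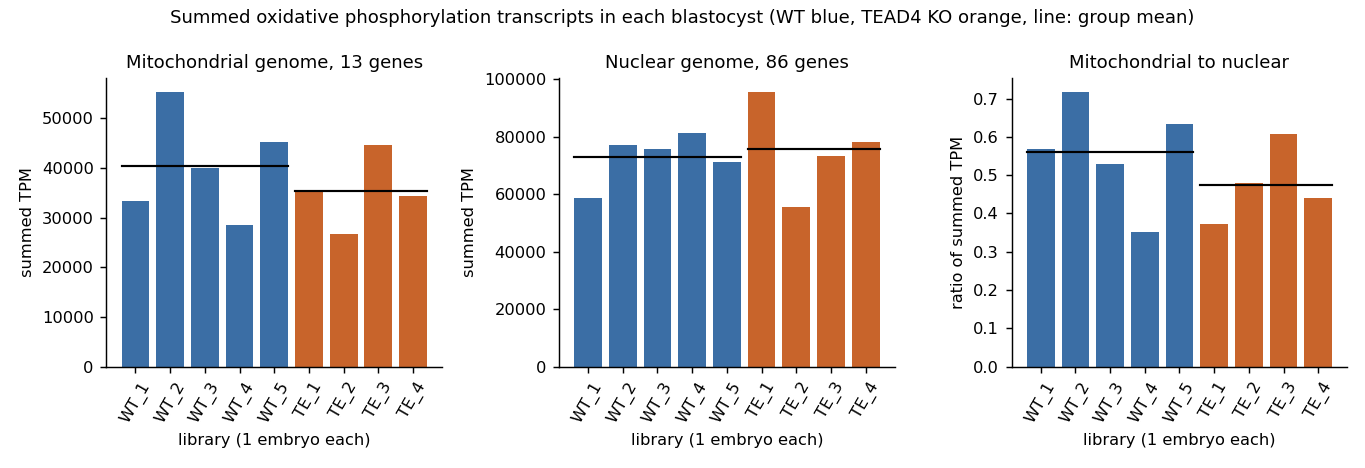
Summed TPM of the 13 mitochondrial and 86 nuclear members and their ratio in each of the 9 libraries, with group means as lines. The ranges of the genotypes overlap in all 3 quantities, and the ratio alone spans 0.352 in WT_4 to 0.717 in WT_2.

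No member passed an adjusted p of 0.05 with limma, where 3 of the 14599 genes tested did (0.0205%). The study called more genes with DESeq2, a test not run here, so that this result holds for limma on TPM alone. At an unadjusted p under 0.05, 1 of the 96 members was higher in KO, *NDUFV1*, against 2.07% of all genes, and 1 was lower, *CYTB*, against 3.83%. *NDUFV1* was also the only member with every KO value above every WT value, which held for 0.801% of all genes. No member had every KO value below every WT value, against 1.23% of all genes. Over the 96 members the median absolute log2 fold change was 0.11, beside 0.22 over all genes tested, which were not matched for abundance. The members' log2 fold changes (KO minus WT, on log2(TPM + 1)) lay between −0.60 and 0.63. Of the 96, 48 were above 0 (against 44.2% of all genes) and 48 below (64 above with median-of-ratios size factors). The number above 0 was 30 without TE_1, 34 without WT_1 and 66 without TE_2, so that single embryos set this balance.

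The 95% confidence interval of the log2 fold change lay within 1 unit of 0 for 84 of the 96 members (87.5%), against 56.8% of all genes tested. It did so for 76 of 83 nuclear and 8 of 13 mitochondrial members. Most members were abundant (91 of 99 with a mean above 100 TPM), whereas the genes tested reached down to a median of 0.1 TPM. The shares are therefore not matched for abundance. The median log2 fold change was 0.024 over the nuclear members and −0.28 over the mitochondrial members, beside −0.046 over all genes tested. The nuclear median took the other sign without WT_1 (−0.053) and without TE_1 (−0.045). The mitochondrial median was −0.12 without WT_2.

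**Figure D2:**
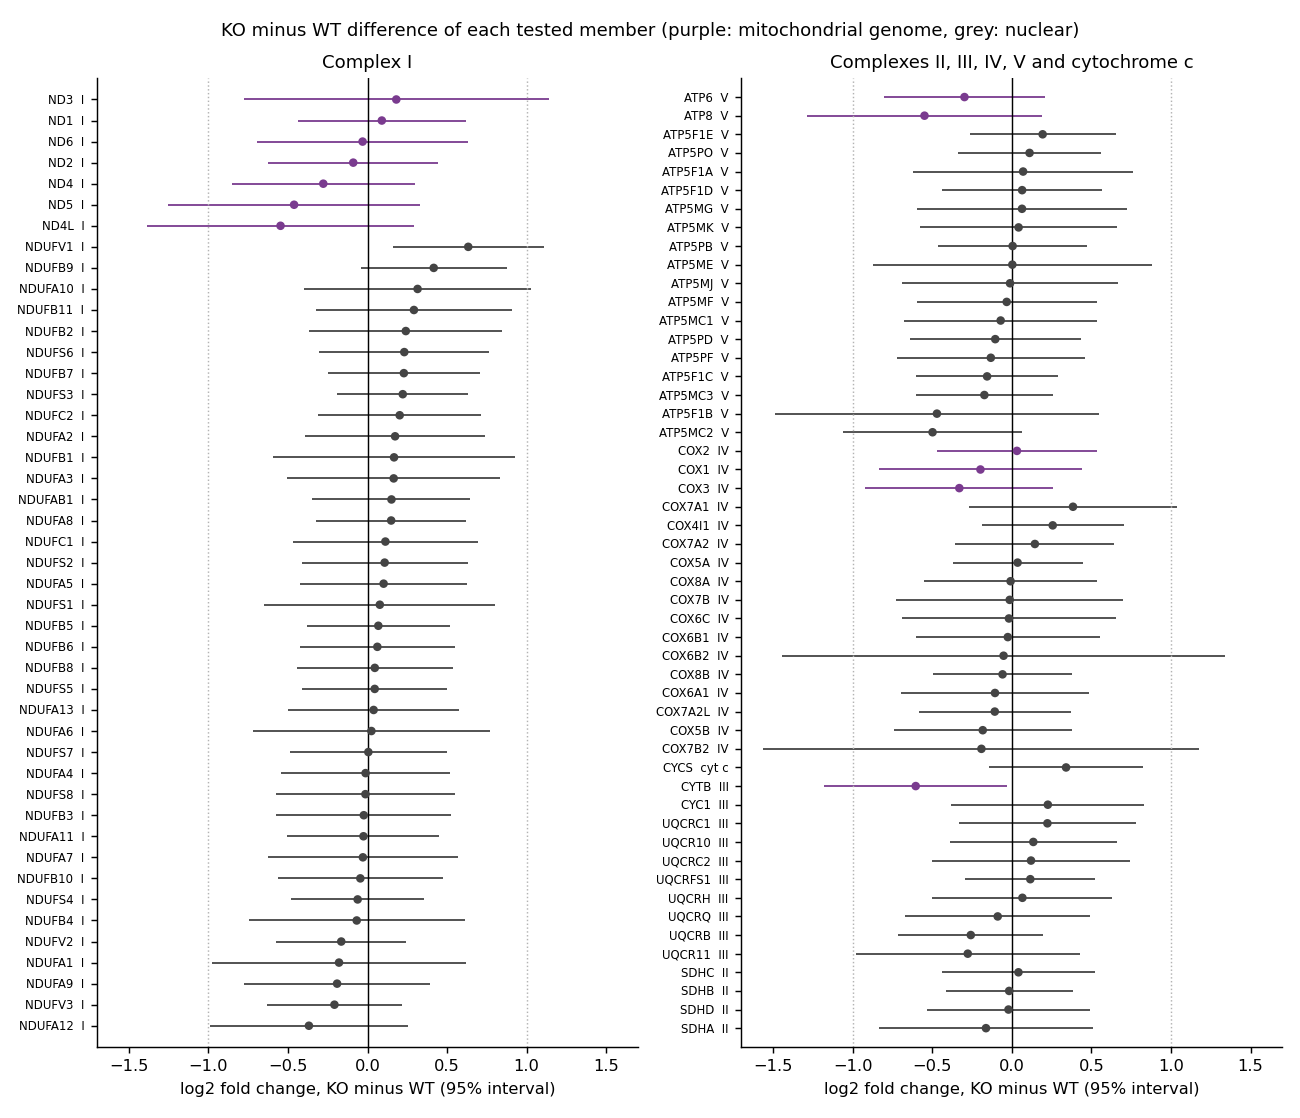
Log2 fold change (KO minus WT) with its 95% interval from limma for the 96 tested members, by complex, with the mitochondrial genome in purple and dotted lines at 1 unit from 0. *NDUFV1* is the only member whose interval lies above 0 and *CYTB* the only member whose interval lies below it, before any adjustment.

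The mitochondrial genome encodes the membrane core of complexes I, III, IV and V, and its genes are transcribed together as long precursors. On the TPM scale, the complex IV genes *COX3*, *COX2* and *COX1* and the complex V gene *ATP6* were the most abundant of the 13, and *ND5* and *ND4L* of complex I the least. In KO embryos 10 of the 13 had a log2 fold change below 0 (9 with median-of-ratios size factors, and 8 to 13 when single embryos were left out). *ND1*, *ND3* and *COX2* were the exceptions. Over all genes tested, 8150 of 14599 had a log2 fold change below 0.

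*CYTB*, the only mitochondrial subunit of complex III, was at 1329, 2769.6, 2081, 1276 and 2314 TPM across WT_1 to WT_5, against 1081, 1089, 1498 and 1287 TPM across TE_1 to TE_4. WT_2, WT_5 and WT_3 were above every KO embryo, while WT_1 and WT_4 were within the range of the KO embryos. The mean was 1954 TPM in WT (SD 644, n = 5) against 1238 TPM in KO (SD 197, n = 4), and the log2 fold change was −0.60 (95% interval −1.18 to −0.030, limma adjusted p = 0.823, exact two-sided permutation p = 0.0794). An unadjusted p under 0.05 was obtained for *CYTB* in 7 of its 16 alternative fits, and its log2 fold change was −0.46 without WT_2.

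*COX1* to *COX3* are the catalytic core of cytochrome c oxidase. *COX3*, the most abundant of all members, was at 8514, 16554, 9993, 6890.0 and 12717 TPM across WT_1 to WT_5, against 8470.3, 6738, 10113 and 8199.7 TPM across TE_1 to TE_4. WT_2 was highest, and the KO embryos lay within the WT range except for TE_2 just below it (log2 fold change −0.33, standard error 0.27, limma adjusted p = 0.946, log2 fold change −0.16 without WT_2). *COX1* was at 6664, 8535, 6223, 4180.3 and 8147 TPM across WT_1 to WT_5, against 6557, 3882, 8803 and 4746 TPM across TE_1 to TE_4. TE_3 was the highest and TE_2 the lowest of all 9 embryos (log2 fold change −0.20, standard error 0.29, limma adjusted p = 0.982, log2 fold change −0.012 without TE_2 and −0.41 without TE_3). *COX2* was at 5624, 8562, 7353, 5769.9 and 7350.5 TPM over the 5 WT embryos in order and 7250.0, 5075, 9173 and 7094 TPM over the 4 KO embryos. Its group means were close, at 6932 and 7148 TPM, and its log2 fold change of 0.032 changed sign with array weights or without WT_1, WT_4 or TE_3 (limma adjusted p = 0.994).

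*ATP6* and *ATP8*, subunits of the membrane part of ATP synthase, lie on 1 shared transcript with overlapping reading frames, so that their separate values are uncertain. *ATP6* was at 3747, 7115, 5083, 3982 and 5570.5 TPM across WT_1 to WT_5, against 3407, 3972, 4229 and 4631 TPM across TE_1 to TE_4. Its KO embryos varied little and lay below the WT embryos WT_2, WT_3 and WT_5 (log2 fold change −0.30, standard error 0.23, limma adjusted p = 0.937, log2 fold change −0.17 without WT_2). *ATP8* was at 1699, 2602, 1554, 1085 and 1569.6 TPM across WT_1 to WT_5, against 658, 1445, 838 and 1957 TPM across TE_1 to TE_4. TE_1 and TE_3 were below every WT embryo and TE_4 was above all of them but WT_2 (log2 fold change −0.55, standard error 0.34, limma adjusted p = 0.905, log2 fold change −0.29 without TE_1). The ratio of *ATP8* to *ATP6* ran from 0.193 in TE_1 to 0.454 in WT_1.

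The 7 mitochondrial subunits of complex I form its proton-pumping arm. *ND1* was at 858, 976, 1135, 876 and 866 TPM over the 5 WT embryos in order and 1073, 777, 1572 and 753 TPM over the 4 KO embryos, with TE_3 above and TE_2 and TE_4 below every other embryo (log2 fold change 0.090, standard error 0.24, limma adjusted p = 0.987). *ND2* was at 1071, 1653, 1257, 857 and 1328 TPM over the 5 WT embryos in order and 977, 866, 1506 and 1288 TPM over the 4 KO embryos and did not separate the groups (log2 fold change −0.090, standard error 0.25, limma adjusted p = 0.987). *ND3* was at 1049, 1310.3, 1552, 1313 and 1268 TPM across WT_1 to WT_5, against 3107, 625, 2836 and 825 TPM across TE_1 to TE_4. All WT embryos fell between the KO pairs, TE_1 and TE_3 high and TE_2 and TE_4 low, and the log2 fold change of 0.18 became −0.18 without TE_1 and −0.14 without TE_3 (limma adjusted p = 0.985).

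*ND4* and *ND4L* share 1 transcript, as *ATP6* and *ATP8* do. *ND4* was at 884, 1732, 1151, 799.6 and 1322 TPM across WT_1 to WT_5, against 830.1, 715, 1207 and 1061 TPM across TE_1 to TE_4. Group ranges overlapped, with WT_2 highest and TE_2 lowest (log2 fold change −0.28, standard error 0.26, limma adjusted p = 0.965, log2 fold change −0.12 without WT_2). *ND4L* was at 372, 585, 329.7, 199.8 and 345 TPM across WT_1 to WT_5, against 115, 258, 228 and 459 TPM across TE_1 to TE_4, lowest in TE_1 and highest in WT_2 (log2 fold change −0.55, standard error 0.38, limma adjusted p = 0.929, log2 fold change −0.20 without TE_1 and −0.86 without TE_4). The ratio of *ND4L* to *ND4* was again lowest in TE_1 (0.139) and TE_3 (0.189), and highest in TE_4 (0.433) and WT_1 (0.420). *ND5* was at 295, 591, 449.9, 204 and 492 TPM over the 5 WT embryos in order and 147, 327, 287 and 418 TPM over the 4 KO embryos. TE_1 was lowest, followed by WT_4 (log2 fold change −0.46, standard error 0.36, limma adjusted p = 0.939, log2 fold change −0.16 without TE_1). *ND6*, the only protein gene on the other strand, was at 1165, 2284, 1927, 1115 and 1869 TPM across WT_1 to WT_5, against 1814, 952, 2305 and 1534 TPM across TE_1 to TE_4, and since the use of strand in counting is not given in the sources used here, reads from the opposite strand may be part of its value. TE_3 and WT_2 were highest and TE_2 lowest (log2 fold change −0.031, standard error 0.30, limma adjusted p = 0.994, and 0.028 on the same scale with size factors).

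**Figure D3:**
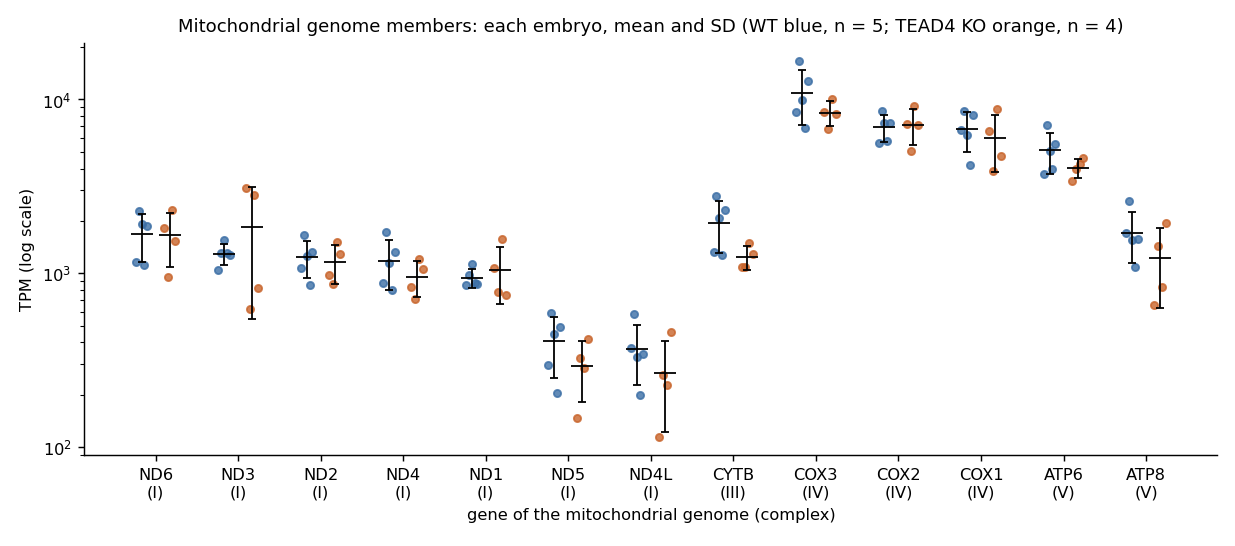
TPM of the 13 mitochondrial members on a log scale, each point 1 embryo, with the mean and SD of the 5 WT and 4 KO embryos. The ranges of the groups overlap in every gene, and the KO embryos of *ND3* split into a high and a low pair, from 625 to 3107 TPM.

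Complex I (NADH dehydrogenase) had 39 nuclear members by symbol, with *NDUFA4*, a subunit of complex IV, among them. They summed to 16552, 19754, 21564, 23534 and 18866 TPM across WT_1 to WT_5, against 27811, 15392, 22947 and 20740 TPM across TE_1 to TE_4. TE_1 was highest and TE_2 lowest, and the WT embryos lay between them. Of the 38 tested, 25 had a log2 fold change above 0 (against 44.2% of all genes) and 13 below, with a median of 0.065. The 7 nuclear core subunits, which carry the flavin and the iron-sulfur clusters, had a median of 0.077. The 31 tested accessory subunits, *NDUFA4* included, had one of 0.062. Per library, the core subunits together varied by 1.31 times between the lowest and the highest embryo, and the accessory subunits by 1.91 times. The ratio of the mitochondrial to the nuclear sum of complex I averaged 0.359 in WT and 0.331 in KO.

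*NDUFV1*, the core subunit that binds NADH and flavin mononucleotide at the entry of the chain, was at 103, 146, 128, 92.0 and 141 TPM across WT_1 to WT_5, against 177, 196, 155 and 226 TPM across TE_1 to TE_4. All KO embryos exceeded all WT embryos, with TE_4 highest and WT_4 lowest. The distance between TE_3, the lowest KO embryo, and WT_2, the highest WT embryo, was small. The mean was 122 TPM in WT (SD 23.5, n = 5) against 188 TPM in KO (SD 30.1, n = 4), and the log2 fold change was 0.63 (95% interval 0.16 to 1.11). With all genes taken into account it was not called (limma adjusted p = 0.684), and its exact two-sided permutation p of 0.0159 is the smallest that 5 against 4 embryos allow. *NDUFV1* had an unadjusted p under 0.05 in all 17 alternative fits, where its log2 fold change ranged from 0.49 with array weights to 0.72 without TE_3.

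Other subunits of the NADH-oxidising module had log2 fold changes on both sides of 0. *NDUFV2*, an iron-sulfur subunit, averaged 584 TPM in WT (SD 65.7, n = 5) against 522 TPM in KO (SD 74.9, n = 4) (log2 fold change −0.17, standard error 0.19, log2 fold change −0.064 without TE_2). *NDUFV3*, an accessory subunit, averaged 116 TPM in WT (SD 16.8, n = 5) against 99.8 TPM in KO (SD 8.36, n = 4) (log2 fold change −0.21, standard error 0.19, log2 fold change −0.13 without WT_2). *NDUFS6*, an accessory subunit, averaged 413 TPM in WT (SD 100.0, n = 5) against 482 TPM in KO (SD 117, n = 4) (log2 fold change 0.23, standard error 0.24, log2 fold change 0.076 without TE_1 and 0.0043 with array weights). *NDUFA2*, another, averaged 797 TPM in WT (SD 170.0, n = 5) against 916 TPM in KO (SD 302, n = 4), and its log2 fold change of 0.17 became −0.025 without TE_1. *NDUFS1*, the large iron-sulfur subunit and the least abundant tested nuclear member of complex I, was at 40.3, 45.6, 30.5, 33.4 and 45.0 TPM across WT_1 to WT_5, against 28.9, 55.9, 23.3 and 71.7 TPM across TE_1 to TE_4. TE_4 and TE_2 were highest and TE_3 and TE_1 lowest, so that the KO embryos surrounded the WT embryos (log2 fold change 0.077, standard error 0.33, limma adjusted p = 0.992). These 5 genes were taken up after the values were seen.

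The nuclear members of complex I had log2 fold changes from −0.37 to 0.63. The most abundant was the small accessory subunit *NDUFB1*, at 1956, 1966, 2883, 3840.0 and 1829 TPM across WT_1 to WT_5, against 4833, 1401, 3132 and 2440.5 TPM across TE_1 to TE_4. TE_1 and WT_4 were highest and TE_2 lowest, and its log2 fold change of 0.17 became −0.12 without TE_1 (limma adjusted p = 0.983). The lowest log2 fold change among the nuclear members of complex I was that of *NDUFA12*, an accessory subunit of the peripheral arm, which was at 55.9, 80.3, 85.8, 86.3 and 89.0 TPM across WT_1 to WT_5, against 82.9, 46.9, 39.3 and 87.5 TPM across TE_1 to TE_4. TE_3, TE_2 and WT_1 were low, and TE_1 and TE_4 lay among the other WT embryos (log2 fold change −0.37, standard error 0.28, limma adjusted p = 0.937, log2 fold change −0.16 without TE_3). *NDUFB9*, an accessory subunit of the membrane arm whose log2 fold change was next to that of *NDUFV1*, was at 702, 699, 800.2, 672 and 609.5 TPM over the 5 WT embryos in order and 1051, 642, 956 and 1138 TPM over the 4 KO embryos. All KO embryos but TE_2 were above the WT embryos (log2 fold change 0.42, standard error 0.21, limma adjusted p = 0.86, exact two-sided permutation p = 0.0794).

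*NDUFA4*, which carries a complex I symbol but is a subunit of complex IV, was at 835, 1030.0, 1376, 1702 and 1077 TPM over the 5 WT embryos in order and 1399.9, 890.1, 1098 and 1312 TPM over the 4 KO embryos, with the KO embryos inside the WT range (log2 fold change −0.012, standard error 0.24, limma adjusted p = 0.997). Its paralog *NDUFA4L2*, known as a gene of the hypoxia response, was at most 0.613 TPM and listed at 0 in WT_1 and TE_2.

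Complex II (succinate dehydrogenase) has nuclear subunits only. Its 4 genes summed to 1672, 2138, 1527, 1760.2 and 1728 TPM across WT_1 to WT_5, against 1695, 1893, 1324 and 2127 TPM across TE_1 to TE_4. TE_3 was lowest, and WT_2 and TE_4 were highest. *SDHC*, a membrane anchor and the most abundant of them, was at 724, 674, 513, 546 and 579 TPM across WT_1 to WT_5, against 687, 683, 419.7 and 748 TPM across TE_1 to TE_4, with KO embryos at both ends of the range (log2 fold change 0.041, standard error 0.22, limma adjusted p = 0.994). *SDHA*, the flavoprotein that oxidises succinate and the least abundant, was at 224, 339, 242, 207 and 250.2 TPM across WT_1 to WT_5, against 164, 346, 130.1 and 328 TPM across TE_1 to TE_4. TE_1 and TE_3 were below every WT embryo, while TE_2 and TE_4 were at the level of WT_2 (log2 fold change −0.16, standard error 0.31, limma adjusted p = 0.982, log2 fold change 0.092 without TE_3 and −0.38 without TE_2). The other anchor *SDHD* (415 to 736 TPM) and the iron-sulfur subunit *SDHB* (271 to 394 TPM) had log2 fold changes of −0.021 and −0.017, and of 0.037 and 0.041 with size factors. *SDHB* varied least of all members, with an SD of 0.15 on the log2 scale over the 9 embryos.

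Complex III (cytochrome bc1) had 9 nuclear members besides *CYTB*, with 6 of 9 log2 fold changes above 0 (against 44.2% of all genes) and a median of 0.12. Their sum was 7018, 10669, 9778, 9564 and 9652 TPM across WT_1 to WT_5, against 11162, 7302, 8471 and 10097 TPM across TE_1 to TE_4, lowest in WT_1 and TE_2. *UQCRB*, the most abundant, was at 2083, 2551, 2228, 2504 and 2199 TPM across WT_1 to WT_5, against 2248, 1339.5, 2019.6 and 2269.5 TPM across TE_1 to TE_4. TE_2 was below all other embryos (log2 fold change −0.26, standard error 0.21, limma adjusted p = 0.944, log2 fold change −0.083 without TE_2). *UQCRC2*, a core protein and the least abundant, was at 358, 312, 256, 284 and 303 TPM across WT_1 to WT_5, against 245, 412, 204 and 554 TPM across TE_1 to TE_4. TE_4 and TE_2 were above every WT embryo and TE_3 and TE_1 below every one (log2 fold change 0.12, standard error 0.28, limma adjusted p = 0.985, log2 fold change −0.13 without TE_4 and 0.35 without TE_3).

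*CYC1*, the haem-carrying cytochrome c1 and the nuclear member of complex III with the highest log2 fold change, was at 533, 1008, 823, 549.8 and 859 TPM across WT_1 to WT_5, against 961, 879, 538 and 1176 TPM across TE_1 to TE_4. TE_3 was as low as WT_1 and WT_4, and TE_4 was above every WT embryo (log2 fold change 0.23, standard error 0.28, limma adjusted p = 0.98, log2 fold change 0.073 without TE_4 and 0.45 without TE_3). *UQCR11*, a small subunit with the lowest log2 fold change of these 9, was at 836, 1754, 1381, 1426 and 1585 TPM over the 5 WT embryos in order and 2133, 808, 1181 and 769 TPM over the 4 KO embryos. TE_1 was highest of all embryos, whereas TE_2 and TE_4 were lowest (log2 fold change −0.28, standard error 0.32, limma adjusted p = 0.972, log2 fold change −0.59 without TE_1 and −0.097 without TE_4). The hinge protein gene *UQCRH* was at 696 to 1479 TPM (log2 fold change 0.066, standard error 0.26, limma adjusted p = 0.992). The ratio of *CYTB* to the nuclear sum of complex III averaged 0.207 in WT (SD 0.0490, n = 5) and 0.138 in KO (SD 0.0338, n = 4), with WT_4 and WT_1 in or near the KO range.

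*CYCS*, the mobile carrier cytochrome c, was at 1906, 2339, 2446, 2423 and 1886 TPM across WT_1 to WT_5, against 3101, 2141, 2331 and 3786 TPM across TE_1 to TE_4. TE_4 and TE_1 were above every WT embryo, and TE_2 and TE_3 were within the WT range. The mean was 2200.0 TPM in WT (SD 281, n = 5) against 2839.7 TPM in KO (SD 755, n = 4) (log2 fold change 0.34, standard error 0.22, limma adjusted p = 0.917, exact two-sided permutation p = 0.159, log2 fold change 0.19 without TE_4).

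With *NDUFA4* counted in complex I by its symbol, complex IV (cytochrome c oxidase) was the only complex whose mitochondrial members outweighed the nuclear ones in TPM. In WT_4 the margin (16840 against 16364 TPM) was smaller than the 1702 TPM of *NDUFA4*. The ratio of the mitochondrial to the nuclear sum of complex IV was 2.19, 2.58, 1.61, 1.03 and 2.26 over the 5 WT embryos in order and 1.31, 1.66, 2.05 and 1.47 over the 4 KO embryos. It was lowest in WT_4 and highest in WT_2. Of the 16 nuclear members 14 were tested, with 4 log2 fold changes above 0 (against 44.2% of all genes) and 10 below and a median of −0.022. Their sum was 9518, 13038, 14594, 16364 and 12502 TPM across WT_1 to WT_5, against 17021, 9456, 13719 and 13654 TPM across TE_1 to TE_4. TE_2 and WT_1 were lowest, and TE_1 and WT_4 highest. *COX6C*, the most abundant, was at 1997, 2259, 3263, 4916 and 2539 TPM over the 5 WT embryos in order and 4259, 1899, 3129.9 and 2429 TPM over the 4 KO embryos, with WT_4 above all KO embryos (log2 fold change −0.019, standard error 0.31, limma adjusted p = 0.997).

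Several subunits of complex IV have alternative isoforms, and in most cases 1 form dominated in every embryo. *COX4I1*, the common form of subunit 4, was at 1210.4, 1573, 1475, 1305 and 1387 TPM across WT_1 to WT_5, against 2067, 1205, 1729 and 1736 TPM across TE_1 to TE_4. TE_1, TE_4 and TE_3 were above every WT embryo and TE_2 was below every one (log2 fold change 0.26, standard error 0.20, limma adjusted p = 0.943, exact two-sided permutation p = 0.159). Its log2 fold change was 0.41 without TE_2 and 0.15 without TE_1. *COX4I2*, a form known from lung, did not exceed 0.673 TPM.

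The heart and muscle forms *COX6A2*, *COX7A1* and *COX8B* were low. Of the 5 muscle markers, *TNNT2*, *CKM* and *MB* were at most 0.508 TPM and *ACTC1*, the most abundant, was at 5.84 to 52.0 TPM. The mean of *ACTC1* was lower in KO, at 15.6 TPM against 24.1 TPM in WT, with overlapping groups (log2 fold change −0.54, standard error 0.47, limma adjusted p = 0.954). *MYH7* was at 0.154, 0.332, 0.187, 0.313 and 0.378 TPM over the 5 WT embryos in order and 0.821, 2.24, 0.432 and 0.984 TPM over the 4 KO embryos. It was low in all embryos but higher in all KO than in all WT embryos, which held for 0.801% of all genes (log2 fold change 0.67, standard error 0.22, limma adjusted p = 0.671, exact two-sided permutation p = 0.0159, the smallest possible). *COX6A2* reached at most 0.716 TPM, beside 954 to 2028 TPM for *COX6A1* (log2 fold change −0.11, standard error 0.27, limma adjusted p = 0.986, log2 fold change 0.089 without TE_2 and −0.27 without TE_1). *COX8B* reached at most 0.751 TPM (log2 fold change −0.059, standard error 0.20, limma adjusted p = 0.992), beside 639.5 to 1337 TPM for *COX8A* (log2 fold change −0.0083, standard error 0.25, limma adjusted p = 0.998). *COX7A1* had the highest log2 fold change among the nuclear members of complex IV. It was at 0.428, 1.01, 2.08, 2.15 and 1.62 TPM over the 5 WT embryos in order and 3.05, 2.34, 1.58 and 1.57 TPM over the 4 KO embryos. The groups overlapped (log2 fold change 0.38, standard error 0.30, limma adjusted p = 0.938, log2 fold change 0.20 without WT_1 and 0.65 with a pseudocount of 0.1 TPM), and *COX7A1* remained at most 0.121% of its sum with *COX7A2*. *COX7A2* itself was at 1943, 2237, 2549, 3361 and 2334 TPM over the 5 WT embryos in order and 3053, 1923, 3132 and 2887 TPM over the 4 KO embryos, highest in WT_4 and lowest in TE_2 (log2 fold change 0.14, standard error 0.23, limma adjusted p = 0.982, log2 fold change 0.062 without WT_1 and 0.31 without TE_2). *COX7A2L*, a related protein of respiratory supercomplexes, was at 181 to 298 TPM (log2 fold change −0.11, standard error 0.22, limma adjusted p = 0.982, log2 fold change −0.0036 without TE_1 and −0.23 without TE_4).

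*COX6B2* and *COX7B2*, forms known mainly from testis in other mammals, were present and varied most between embryos. *COX6B2* was at 8.02, 21.8, 29.8, 17.4 and 24.9 TPM across WT_1 to WT_5, against 33.2, 14.8, 54.7 and 3.38 TPM across TE_1 to TE_4. TE_3 was highest and TE_4 lowest, and *COX6B2* made up 0.216% to 3.98% of its sum with *COX6B1* (log2 fold change −0.052, standard error 0.64, limma adjusted p = 0.996). *COX6B1* was at 864 to 1908 TPM (log2 fold change −0.026, standard error 0.27, limma adjusted p = 0.994). *COX7B2*, the nuclear member of complex IV with the lowest log2 fold change, was at 42.6, 161, 514, 432 and 177 TPM across WT_1 to WT_5, against 209, 217, 233 and 77.9 TPM across TE_1 to TE_4. WT_3 and WT_4 were high and WT_1 and TE_4 low, and its log2 fold change of −0.19 became 0.18 without TE_4 and 0.16 without WT_3 (limma adjusted p = 0.991). Its partner *COX7B* was at 209, 317, 574, 712 and 336 TPM over the 5 WT embryos in order and 413, 368, 459.9 and 322 TPM over the 4 KO embryos, also highest in WT_4 and WT_3 (log2 fold change −0.014, standard error 0.33). *COX7B2* was thus 16.9% of the sum of both genes in WT_1 and 47.2% in WT_3, a far larger share than that of *COX6B2*. The sperm markers *ODF1* and *AKAP4* were at or near 0 in every library, while *PRM1* and *TNP1* reached 73.1 TPM in TE_3 and 75.1 TPM in WT_4. These 4 markers, of which *PRM1* and *TNP1* are the most abundant, summed to 1.66, 2.82, 23.6, 121 and 2.32 TPM across WT_1 to WT_5, against 5.03, 0.779, 74.8 and 5.64 TPM across TE_1 to TE_4. WT_4, TE_3 and WT_3 were highest, as they were in *COX7B2* in another order, while *COX6B2* was lower in WT_4 than in TE_1, where the markers were low. The part of such transcripts in either gene was not tested.

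**Figure D4:**
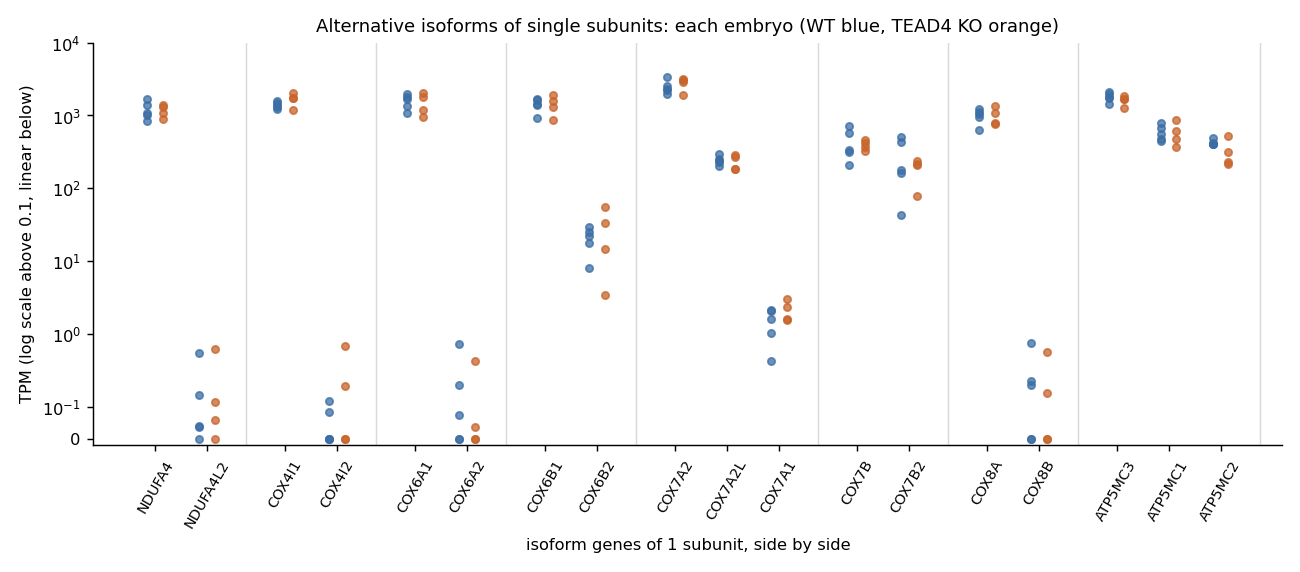
TPM of isoform genes of single subunits in each embryo, on a scale that is linear below 0.1 TPM, with WT in blue and KO in orange. The pairs of *NDUFA4*, *COX4*, *COX6A*, *COX7A* and *COX8* differ by orders of magnitude in both genotypes, while *COX7B2*, at up to 514 TPM, and the 3 *ATP5MC* genes stand near their partners.

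Complex V (ATP synthase) had 17 nuclear members, the largest summed share of the nuclear members. They summed to 21880.4, 29134, 25693, 27429.7 and 26661 TPM across WT_1 to WT_5, against 34652, 19386, 24522 and 27546 TPM across TE_1 to TE_4. TE_1 was highest and TE_2 lowest, as for complex I. Log2 fold changes were above 0 for 8 (against 44.2% of all genes) and below 0 for 9, with a median of −0.012. The small membrane subunit *ATP5MK* was the most abundant nuclear member of all, at 2649, 3332, 4502, 4665 and 2916 TPM across WT_1 to WT_5, against 5201, 2157, 4019.6 and 3826 TPM across TE_1 to TE_4, and TE_1 and TE_2 were its extremes (log2 fold change 0.042, standard error 0.28, limma adjusted p = 0.994). The stalk subunit *ATP5F1D* was the least abundant of complex V, at 232 to 419 TPM (log2 fold change 0.064, standard error 0.23, limma adjusted p = 0.992). *ATP5F1E*, another subunit of the central stalk, had the highest log2 fold change of the complex. It was at 1085, 1294, 1109, 1181 and 1114 TPM over the 5 WT embryos in order and 1835, 969.6, 1253 and 1359 TPM over the 4 KO embryos. TE_1 and TE_4 were above every WT embryo, TE_3 was within the WT range and TE_2 was lowest (log2 fold change 0.19, standard error 0.21, limma adjusted p = 0.971, log2 fold change 0.035 without TE_1 and 0.34 without TE_2).

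*ATP5MC1*, *ATP5MC2* and *ATP5MC3* encode the same mature c subunit of the proton-driven ring, and reads from their shared stretches may have been divided between them. *ATP5MC2* had the lowest log2 fold change of all nuclear members. It was at 412, 486, 404, 418 and 411 TPM across WT_1 to WT_5, against 521, 231, 213 and 319.6 TPM across TE_1 to TE_4. The WT embryos lay close together. TE_2, TE_3 and TE_4 were below all of them, whereas TE_1 was above all of them. The mean was 426 TPM in WT (SD 33.9, n = 5) against 321 TPM in KO (SD 141, n = 4) (log2 fold change −0.50, standard error 0.26, limma adjusted p = 0.877, exact two-sided permutation p = 0.127). Without TE_1 the log2 fold change was −0.76. *ATP5MC3* was the main form, at 1733, 2084, 1456, 1811 and 1966 TPM over the 5 WT embryos in order and 1695, 1666, 1251 and 1824 TPM over the 4 KO embryos, or 54.8% to 73.7% of the sum of the 3 genes (log2 fold change −0.17, standard error 0.20, limma adjusted p = 0.971, log2 fold change −0.057 without TE_3). *ATP5MC1* was at 364 to 875 TPM (log2 fold change −0.071, standard error 0.28, limma adjusted p = 0.992). The share of *ATP5MC2* in that sum was 15.7, 14.4, 16.6, 15.6 and 13.5% across WT_1 to WT_5, against 16.8, 10.2, 11.0 and 11.6% across TE_1 to TE_4. TE_2, TE_3 and TE_4 were below all WT embryos in this share and TE_1 was above them.

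*ATP5F1B*, the catalytic beta subunit, was taken up after its values were seen. It was at 1567, 1964, 1284, 1023 and 1691 TPM across WT_1 to WT_5, against 1098, 1693, 314 and 2152 TPM across TE_1 to TE_4. TE_3 stood far below the other 8 embryos, and without it the log2 fold change of −0.47 became 0.11 (limma adjusted p = 0.967). *ATP5F1A*, the alpha subunit that alternates with it in the catalytic head, was at 1484, 1362, 815, 855 and 1254 TPM over the 5 WT embryos in order and 963, 1696, 669 and 1753 TPM over the 4 KO embryos. TE_3 was also its lowest embryo and TE_4 and TE_2 its highest (log2 fold change 0.070, standard error 0.32, limma adjusted p = 0.993).

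Embryos of the same genotype differed along a common axis. A principal component analysis was made of the 83 tested nuclear members on log2(TPM + 1), centred but not scaled by gene. The first component held 44.0% of the variance. Its scores were −3.58, −0.0789, 1.73, 1.76 and −0.116 over the 5 WT embryos in order and 3.14, −3.03, 2.58 and −2.40 over the 4 KO embryos. WT_1, TE_2 and TE_4 were at one end and TE_1, TE_3, WT_4 and WT_3 at the other, so that the component did not follow genotype. Among its weights, 61 were above 0 and 22 below. Without scaling, genes that vary more can weigh more, and the largest weights were those of *COX6B2* (0.346) and *COX7B2* (0.315).

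The 5 lowest weights were those of *ATP5F1B*, *ATP5F1A*, *NDUFS1*, *UQCRC2* and *SDHA*. The 7 highest were those of *COX6B2*, *COX7B2*, *ATP5ME*, *NDUFB1*, *NDUFA1*, *ATP5MJ* and *UQCR11*. *ATP5ME*, a small membrane subunit of ATP synthase, was at 574, 1581, 1911, 1952 and 1510.4 TPM across WT_1 to WT_5, against 2437, 1115, 1697 and 806 TPM across TE_1 to TE_4, lowest in WT_1 and TE_4. The ratio of *ATP5ME* to *ATP5F1B*, chosen for being at opposite ends, was 0.366, 0.805, 1.49, 1.91 and 0.893 over the 5 WT embryos in order and 2.22, 0.658, 5.40 and 0.375 over the 4 KO embryos. It spread over 14.7 times between TE_3 and WT_1. TE_4 was next to WT_1, and TE_2 lay between these and WT_2.

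Genes with a symbol of RPL or RPS and a digit, 91 in all, were taken to stand for cytosolic ribosomal proteins. This rule leaves out RPLP symbols and can take in genes of other proteins. The sum of the 91 showed the same extremes as the nuclear sum, at 95297, 86435, 95272, 109401 and 93218 TPM across WT_1 to WT_5, against 136873, 75128, 104550 and 92051 TPM across TE_1 to TE_4. TE_1 was highest and TE_2 lowest in both. On the log2 scale the median SD over the 9 embryos was 0.36 for nuclear members and 0.44 for mitochondrial members. It was 0.47 for all genes tested, which were not matched for abundance.

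**Figure D5:**
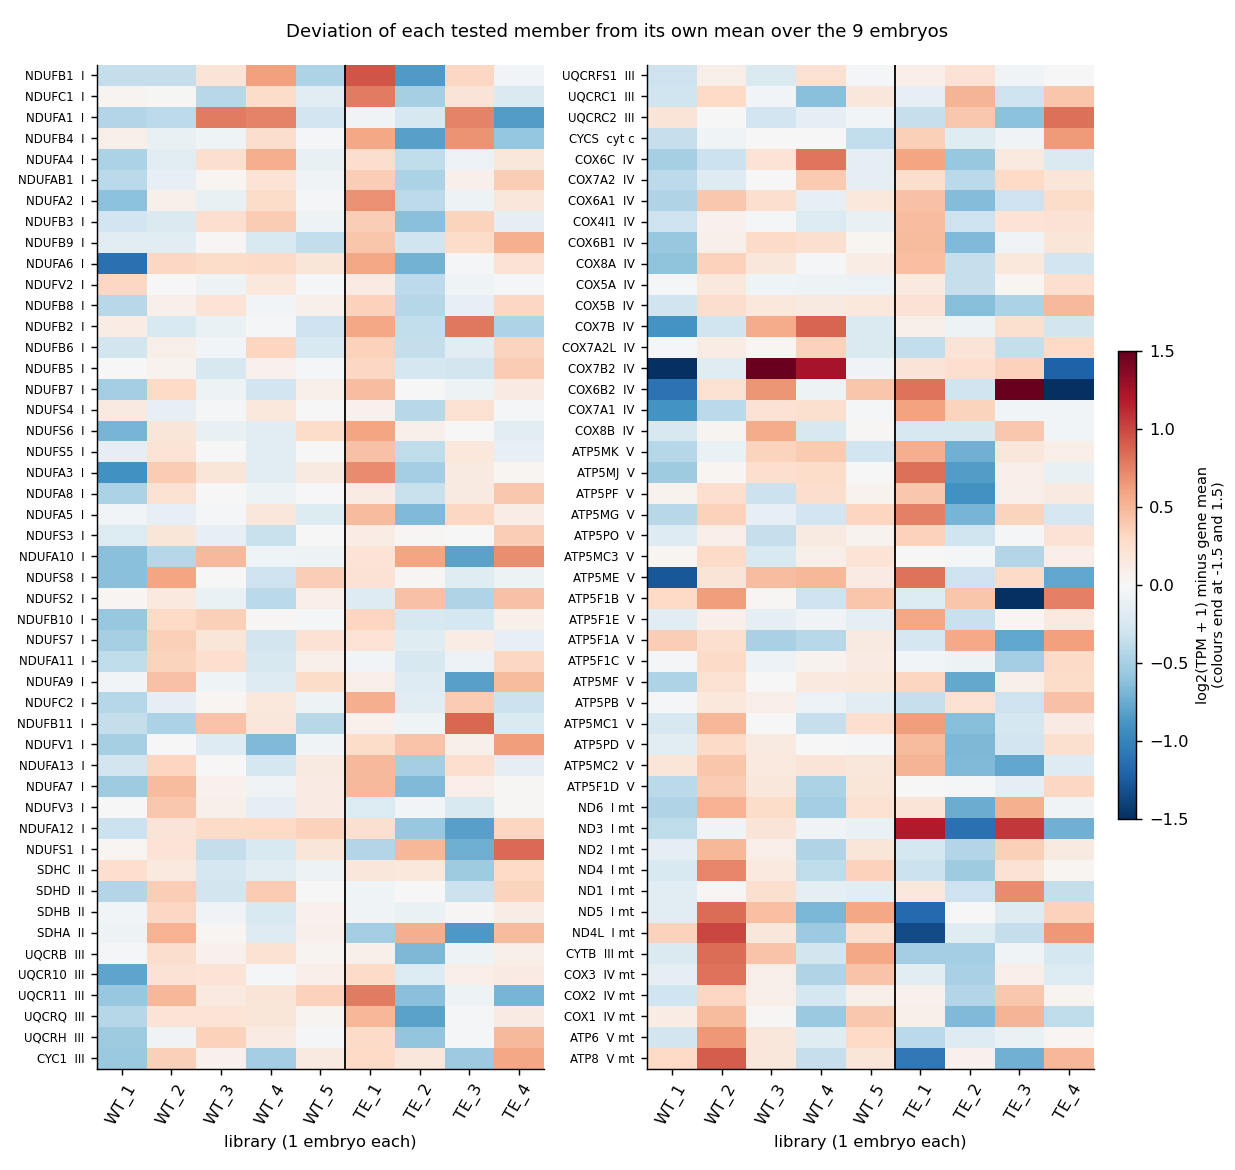
Deviation of each of the 96 tested members from its own mean over the 9 embryos, on log2(TPM + 1), with nuclear members first and mitochondrial members (mt) last, and a black line between WT and KO libraries. Most nuclear members are low in WT_1 and TE_2 and high in TE_1, while *ATP5F1B*, *ATP5F1A*, *NDUFS1*, *UQCRC2* and *SDHA* show another order and most mitochondrial members are highest in WT_2.

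Genes that assemble, supply or regulate the chain were followed in 14 lists besides the mitochondrial ribosome. Of their 161 tested genes, 79 had a log2 fold change above 0 (against 44.2% of all genes) and 82 below. None passed an adjusted p of 0.05 with limma, 4 had an unadjusted p under 0.05 with a higher mean in KO (against 2.07% of all genes) and 3 with a lower mean (against 3.83%). Groups did not overlap for 1 gene higher in KO (against 0.801%) and 1 lower (against 1.23%). Lists without a gene at an unadjusted p under 0.05 were those of complex I, II and III assembly, mitochondrial DNA replication, mitochondrial RNA processing, other electron entry, coenzyme Q synthesis, cristae and cardiolipin, and supercomplex factors.

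Among the 24 complex IV assembly genes, 15 had a log2 fold change above 0 (against 44.2% of all genes). *COX16*, a factor in *COX2* maturation, was at 129, 212, 211, 212 and 199.6 TPM across WT_1 to WT_5, against 274, 215, 251 and 264 TPM across TE_1 to TE_4. The groups did not overlap, although TE_2 exceeded WT_4 by little (log2 fold change 0.40, standard error 0.21, limma adjusted p = 0.886, exact two-sided permutation p = 0.0159, log2 fold change 0.26 without WT_1). *COA8*, a complex IV assembly factor, was at 91.8, 118, 124, 112 and 94.4 TPM over the 5 WT embryos in order and 168, 120.0, 145 and 176 TPM over the 4 KO embryos. Only TE_2 lay within the WT range (log2 fold change 0.49, standard error 0.20, limma adjusted p = 0.803). *FMC1*, an assembly factor of ATP synthase, was at 90.3, 133, 103, 134 and 129.8 TPM across WT_1 to WT_5, against 236, 176, 281 and 98.0 TPM across TE_1 to TE_4. TE_3, TE_1 and TE_2 were above every WT embryo and TE_4 was among the lowest (log2 fold change 0.65, standard error 0.30, limma adjusted p = 0.836).

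*MTERF2*, of the termination factor family of mitochondrial transcription, was at 3.52, 1.68, 1.34, 1.52 and 2.22 TPM over the 5 WT embryos in order and 0.291, 1.08, 0 and 2.34 TPM over the 4 KO embryos. It was listed at 0 in TE_3 and was low in TE_1 and TE_2 (log2 fold change −0.78, standard error 0.36, limma adjusted p = 0.836, log2 fold change −0.52 without TE_3 and −1.81 with a pseudocount of 0.1 TPM). Of the 9 genes of mitochondrial transcription, 6 had a log2 fold change below 0 (against 8150 of all 14599 genes). Among the nuclear regulators of respiratory genes, the orphan receptor gene *ESRRB* was at 70.1, 49.1, 66.9, 42.0 and 42.7 TPM across WT_1 to WT_5, against 57.4, 95.9, 104 and 93.3 TPM across TE_1 to TE_4. TE_1 was within the WT range and the other KO embryos were above it (log2 fold change 0.68, standard error 0.26, limma adjusted p = 0.764). *MYC* was at 11.4, 7.51, 7.88, 18.3 and 16.6 TPM over the 5 WT embryos in order and 5.93, 6.51, 8.45 and 0.738 TPM over the 4 KO embryos. TE_4 was lowest, and TE_3 lay within the WT range (log2 fold change −1.22, standard error 0.50, limma adjusted p = 0.784, log2 fold change −0.68 without TE_4).

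*UCP2*, an inner membrane carrier of the uncoupling protein family, was at 16.4, 24.8, 15.5, 19.7 and 40.8 TPM across WT_1 to WT_5, against 10.9, 2.94, 14.4 and 2.93 TPM across TE_1 to TE_4. All KO embryos were below all WT embryos. TE_2 and TE_4 were lowest, and TE_3 was close to WT_3. The mean was 23.4 TPM in WT (SD 10.3, n = 5) against 7.78 TPM in KO (SD 5.77, n = 4) (log2 fold change −1.66, standard error 0.47, limma adjusted p = 0.585, exact two-sided permutation p = 0.0159). *SLC25A5*, which exchanges ADP for ATP across the inner membrane, was at 575, 636, 1475, 699 and 719 TPM across WT_1 to WT_5, against 752, 4544, 1371 and 1490.0 TPM across TE_1 to TE_4. TE_2 was far above all others, WT_3 was as high as TE_4 and TE_3, and TE_1 was near the lower WT embryos (log2 fold change 1.08, standard error 0.45, limma adjusted p = 0.797). Its log2 fold change was 0.58 without TE_2.

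The mitochondrial ribosome translates the 13 mitochondrial members. Of its 78 genes (MRPL and MRPS symbols), all tested, 63 had a log2 fold change above 0 (80.8%, against 44.2% of all genes) and 15 below, with a median of 0.17 beside −0.046 over all genes. Size factors raised the number above 0 to 71, quantile normalization gave 61, and leaving out single embryos gave 56 to 67. No gene of the list passed an adjusted p of 0.05. At an unadjusted p under 0.05, 6 of the 78 were higher in KO, against 2.07% of all genes, and 0 lower, against 3.83%. In 3 of the 78 every KO value was above every WT value, against 0.801% of all genes. Their sum was 12202, 14139, 13537, 14053 and 13329 TPM across WT_1 to WT_5, against 16205, 13829, 14802 and 16539.5 TPM across TE_1 to TE_4. TE_4, TE_1 and TE_3 were above every WT embryo, and TE_2 lay within the WT range. Genes above 0 TPM numbered 14807, 15933, 16678, 16086 and 16549 across WT_1 to WT_5, against 14776, 15156, 15167 and 15375 across TE_1 to TE_4. Only WT_1 was within the KO range. Cumulus and granulosa markers, described below, summed to a mean of 149 TPM in WT and 53.9 TPM in KO. Most of that gap came from 1 gene, *CYP11A1*, while *AMH* and *CYP19A1* had log2 fold changes above 0. The part of either difference in the mitochondrial ribosome list was not tested.

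*MRPL41*, of the large ribosomal subunit, was at 121, 237, 180.4, 174 and 230.0 TPM across WT_1 to WT_5, against 378, 341, 355 and 274 TPM across TE_1 to TE_4. Every KO embryo was above WT_2, the highest WT embryo (log2 fold change 0.86, standard error 0.23, limma adjusted p = 0.534, exact two-sided permutation p = 0.0159). *MRPL40* was at 194, 257, 239, 242 and 245 TPM over the 5 WT embryos in order and 378, 265, 398 and 296 TPM over the 4 KO embryos. TE_2 was just above WT_2 and the other KO embryos were clear of the WT range (log2 fold change 0.49, standard error 0.20, limma adjusted p = 0.783). *MRPL9* was at 234, 176, 190.1, 214 and 196 TPM over the 5 WT embryos in order and 243, 269.9, 294 and 293 TPM over the 4 KO embryos. WT_1 was the highest WT embryo and TE_1 the lowest KO embryo, close to each other (log2 fold change 0.45, standard error 0.18, limma adjusted p = 0.783). *MRPL18* averaged 191 TPM in WT (SD 60.4, n = 5) against 303 TPM in KO (SD 65.8, n = 4), with 3 KO embryos below WT_1 (log2 fold change 0.69, standard error 0.25). *MRPL46* averaged 54.1 TPM in WT (SD 8.67, n = 5) against 83.3 TPM in KO (SD 17.6, n = 4), with TE_3 below WT_2 (log2 fold change 0.60, standard error 0.22). *MRPS18B* of the small subunit averaged 137 TPM in WT (SD 15.5, n = 5) against 189 TPM in KO (SD 26.1, n = 4), with TE_3 below WT_1 (log2 fold change 0.45, standard error 0.19).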

How the data were processed

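The authors sequenced single blastocysts and deposited gene abundances as TPM for 21512 genes in 9 libraries. FastQC, fastp and kallisto are named, without versions, in the submitters' processing notes; genome build and annotation are not given in the sources used here. Columns show genotype but not which deposited sample they hold. TPM keep no depth, so no counting interval is given, and the DESeq2 test of the study, which needs counts, was not run.

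Genes with a median above 0.1 TPM were fitted with limma 3.58.1 in R 4.3.3 (lmFit, eBayes with trend) on log2(TPM + 1), and p-values were adjusted over all 14599 by Benjamini-Hochberg. This scale understates changes of low genes. Exact two-sided permutation tests compared mean log2(TPM + 1) of single genes. Python 3.11.15 with scipy 1.17.1, numpy 2.4.6, pandas 2.3.3 and matplotlib 3.10.9 served for the rest.

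Members and lists were chosen with earlier results of these data known, so that no test was made over a list. Named genes were *TEAD4*, the 13 mitochondrial members, in each complex the most and least abundant nuclear member and those with the largest log2 fold change in each direction, members with an unadjusted p under 0.05 or without overlap, isoform sets, and in each pathway list up to 8 genes by p with an unadjusted p under 0.05 or without overlap. *ATP5F1A*, *ATP5F1B*, *ATP5ME*, *NDUFS1*, *NDUFV2*, *NDUFV3*, *NDUFS6*, *NDUFA2*, *NDUFB9*, *MYH7*, *GATA4*, *TFAP2A*, *NDUFA1*, *NDUFB11*, *COX7B*, *SDHB*, *SDHD* and *ATP5MJ* were named after their values were seen. So were the other markers given with a log2 fold change, *CYP11A1* among them. All 99 symbols are in the RefSeq annotation of ARS-UCD2.0, used only to find members on the X chromosome. *UQCRHL* was not analysed here.

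Alternatives were a pseudocount of 0.1 TPM, other filters (none, or a median above 1 TPM), median-of-ratios size factors, quantile normalization, rescaling to 1000000 without the 13 mitochondrial genes, limma without trend or with array weights, and leaving out each embryo.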

Additional observations from a re-analysis of the deposited data

Results flagged for a closer look

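The gap between the highest or lowest embryo and the nearest of its group, as a share of the group's range, was above Dixon's 95% critical value for a group of its size in 7 of 166 groups of values looked at (4.22%), and chance sets apart about 1 in 20. *NDUFA12* was at 55.9 TPM in WT_1, below 80.3 to 89.0 TPM in the other WT embryos. *COX16* was also low in WT_1, at 129 TPM against 199.6 to 212 TPM. *MRPS18B* was high in WT_1, at 164 TPM against 125 to 134 TPM. WT_2 stood above its group for *ATP5MC2* (486 TPM, others 404 to 418 TPM) and for *MRPL46* (69.4 TPM, others 48.6 to 51.7 TPM). *SLC25A5* was at 1475 TPM in WT_3 and at 575 to 719 TPM in the other WT embryos. Among KO embryos, *COX7B2* was at 77.9 TPM in TE_4 and at 209 to 233 TPM in the others.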

How the results depend on the processing

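No member passed an adjusted p of 0.05 in any of the 17 alternative fits, where the smallest adjusted p of a member was 0.447. The number of members past an unadjusted p of 0.05, 2 as reported, was 1 with no filter, with size factors, with rescaling and without trend, 4 with array weights, 3 with quantile normalization, 2 with a pseudocount of 0.1 TPM or a median above 1 TPM, and 1 to 3 when an embryo was left out. *NDUFV1* was among them in each fit. The number without overlap, 1 as reported, was 1 to 3 with an embryo left out: *ATP5MC2* was added without TE_1 (2 in all), and *NDUFB9* and *COX4I1* without TE_2 (3 in all). The median log2 fold change ranged from −0.053 to 0.16 for nuclear and from −0.40 to −0.12 for mitochondrial members with an embryo left out, and size factors gave 0.083 and −0.22. Members with a log2 fold change above 0 numbered 48 of 96 as reported, 64 with size factors and 30 to 66 with an embryo left out. The log2 ratio of KO to WT mean summed TPM was −0.20 for mitochondrial members (−0.10 with size factors, −0.33 to −0.060 with an embryo left out) and 0.055 for nuclear members (0.18 with size factors, −0.077 to 0.18 with an embryo left out, and below 0 without TE_1 or WT_1). Rescaling without the mitochondrial genes gives no value for those genes.

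The log2 fold change of 32 of 72 genes (*TEAD4* and the named members and pathway genes with a test) took the other sign at least once, and the cause was not tested. None of the 72 passed an adjusted p of 0.05 under any alternative. It did so with size factors for *ND6* (0.028), *COX6C* (0.040), *COX6B1* (0.033), *COX6B2* (0.010), *COX8A* (0.050), *NDUFA4* (0.046), *COX7B* (0.045), *SDHB* (0.041), *SDHD* (0.037) and *ATP5MJ* (0.047), after quantile normalization for *COX6B2* (0.034), *ATP5MJ* (0.084), *COX8B* (0.0081) and *ATP5ME* (−0.048), with rescaling for *ATP5ME* (−0.0052), and with array weights for *COX6C* (0.081), *NDUFA4* (0.059), *COX7B* (0.10), *ATP5ME* (−0.13), *COX2* (−0.054), *ATP5F1D* (−0.091), *COX7A2L* (0.014), *ATP5F1A* (−0.021), *NDUFS1* (−0.025) and *NDUFA1* (0.020). With 1 embryo left out, the ranges were −0.22 to 0.21 for *ND6*, −0.22 to 0.18 for *COX6C*, −0.19 to 0.19 for *COX6B1*, −0.57 to 0.66 for *COX6B2*, −0.16 to 0.11 for *COX8A*, −0.13 to 0.12 for *NDUFA4*, −0.24 to 0.20 for *COX7B*, −0.077 to 0.057 for *SDHB*, −0.14 to 0.080 for *SDHD*, −0.29 to 0.27 for *ATP5MJ*, −0.13 to 0.012 for *COX8B*, −0.32 to 0.26 for *ATP5ME*, −0.099 to 0.19 for *COX2*, −0.047 to 0.17 for *ATP5F1D*, −0.12 to 0.34 for *ATP5F1A*, −0.19 to 0.34 for *NDUFS1*, −0.46 to 0.067 for *NDUFA1*, −0.13 to 0.29 for *ATP5MK*, −0.085 to 0.28 for *UQCRH*, −0.23 to 0.039 for *ND2*, −0.29 to 0.13 for *ATP5MC1*, −0.049 to 0.23 for *SDHC*, −0.73 to 0.18 for *COX7B2*, −0.18 to 0.59 for *ND3*, −0.12 to 0.48 for *NDUFB1*, −0.025 to 0.34 for *NDUFA2*, −0.27 to 0.089 for *COX6A1*, −0.13 to 0.22 for *ND1*, −0.38 to 0.092 for *SDHA*, −0.81 to 0.11 for *ATP5F1B*, −0.13 to 0.35 for *UQCRC2*.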

Other observations

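By the RefSeq annotation, 3 members lie on the X chromosome. *NDUFA1*, an accessory subunit of complex I, was at 887, 915, 2073, 2019 and 989 TPM across WT_1 to WT_5, against 1158, 1017, 2019 and 674 TPM across TE_1 to TE_4. WT_3, WT_4 and TE_3 were high and the other 6 embryos low, and the genotypes overlapped. *NDUFB11* was at 123, 113, 212, 177 and 118 TPM over the 5 WT embryos in order and 165, 151, 288 and 135 TPM over the 4 KO embryos, again highest in TE_3 and WT_3. *COX7B* was highest in WT_4 and WT_3, with TE_3 next. Over the 412 tested genes of the X chromosome, the median deviation from each gene's mean, on the log2 scale, was −0.19, −0.31, 0.48, 0.23 and −0.093 over the 5 WT embryos in order and −0.57, 0.34, 0.28 and −0.22 over the 4 KO embryos. Over all genes tested it was 0.018, −0.066, 0.11, −0.011 and 0.025 over the 5 WT embryos in order and −0.28, 0.22, −0.061 and 0.0042 over the 4 KO embryos, with the same extremes in KO, TE_2 and TE_1.

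The markers of the oocyte summed to 3.29 to 46.2 TPM, mostly *OOSP2* in WT_1 (37.5 TPM). The 8 cumulus and granulosa markers summed to 263, 119, 70.7, 133 and 161 TPM over the 5 WT embryos in order and 51.0, 33.9, 123 and 7.45 TPM over the 4 KO embryos, highest in WT_1 and lowest in TE_4. *FSHR* was at 14.5, 26.8, 15.8, 12.1 and 18.2 TPM across WT_1 to WT_5, against 23.3, 21.8, 21.8 and 1.36 TPM across TE_1 to TE_4, and only TE_4 was far below the others. *AMH*, *HAS2* and *PTX3* were at most 2.27 TPM. *CYP11A1* was the most abundant, at 247, 90.9, 52.7, 116 and 139 TPM across WT_1 to WT_5, against 26.7, 7.22, 96.7 and 4.57 TPM across TE_1 to TE_4. Every KO embryo but TE_3 was below every WT embryo (log2 fold change −2.61, standard error 0.73, limma adjusted p = 0.566, exact two-sided permutation p = 0.0476). *FSHR* (−0.44), *TNFAIP6* (−0.70) and *FOXL2* (−0.17) also had log2 fold changes below 0, while *AMH* (0.52) and *CYP19A1* (0.33) had log2 fold changes above 0. The muscle list summed to 6.86 to 52.3 TPM, mostly from *ACTC1*.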
